A study of Mus musculus with 18 samples.

Results

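The wide distal H3K9me3 peaks of wild-type mouse embryonic fibroblasts (MEFs) were 195 of the 14425 peaks in the WT list, and 195 of its 14273 autosomal peaks. They were chosen by the width of the deposited peak and its distance from genes. Each spanned at least 2000 bp and lay more than 1 kb from every annotated transcript start of mm9 (GENCODE vM1). Another 47 of the 242 autosomal peaks of that width were set aside because they lay within 1 kb of a start. The remaining 13082 distal peaks were narrower and served as the comparison, with the 1216 of them that spanned 1000 bp up to 2000 bp as the closest class. H3K9me3 was profiled by ChIP-seq in C57BL/6 MEFs that carried the unexcised Kap1 loxP/loxP alleles (WT) and in Kap1 KO MEFs, with H3K27ac in the same lines, and KAP1 and SETDB1 were profiled in Hepa 1.6, a hepatoma line from a C57L mouse. Each group had 1 library. According to the methods, the KO line was a stably growing clone that had been passaged many times beside its unexcised counterpart, so genotype, clone and library cannot be told apart. Because KAP1 was mapped in Hepa 1.6 and not in MEFs in the lists used here, its peaks give the position of KAP1 in another cell type.

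H3K9me3 is the histone mark of constitutive heterochromatin. In the best-known route, a KRAB zinc finger protein (KZFP) binds a DNA sequence, often in a transposable element, and recruits KAP1 (TRIM28), which brings the histone methyltransferase SETDB1 to that place. Other methyltransferases, SUV39H1 and SUV39H2 among them, mark satellite repeats without a KZFP. H3K27ac marks active promoters and enhancers and is not usually found on chromatin with H3K9me3.

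The MEF libraries carried H3K27ac at fibroblast genes. Of 12 fibroblast genes, 11 had an H3K27ac peak within 1 kb of a start in WT and 10 in Kap1 KO cells, against 0 of 5 embryonic stem cell genes and 0 of 5 hepatocyte genes in either. Of the other lists, 1 of 4 blood genes had such a peak in WT and 2 of 4 in KO cells, 1 of 4 epithelial genes in WT and 0 of 4 in KO cells, and 1 of 3 neuronal genes in each. The WT H3K9me3 list held 14425 peaks and the KO list 4319, with median scores of 79.9 and 65.6. The lists carry no read counts. Sequencing depth is therefore unknown, and its part in the difference in list length was not tested. A place without a listed peak can still hold signal. On chromosome 10 beyond 110 Mb the KO list held 503 of its 626 autosomal peaks of at least 2000 bp. There was 1 wide WT peak in that region, and it had no KO peak.

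The share with a KO peak was compared for repeats inside the peak, direct repeat pairs, zinc finger linkers and similarity to another wide peak. Of these, repeats inside the peak gave the largest difference, and 7 peaks that hold them are shown for that reason. GC content and the number of places in mm9 were not compared in this way. The 7 were picked for a high share of repeated words, a short unit and a place outside exons. They do not stand for all 20 wide peaks with internal repeats, of which 10 had a KO peak. Sequences were read from mm9 on the plus strand, 120 bases each, with 1 copy of the repeat unit in capitals. The peak in an intron of Lyst, whose product acts in lysosome trafficking, repeated a unit of 34 bases, found 23 times without a change. The peak in an intron of Rrp15, a gene for ribosomal RNA processing, had a unit of 31 bases with 31 exact copies. The peak nearest to Prox1, a homeobox gene, had a unit of 25 bases with 40 exact copies, that nearest to 9230019H11Rik a unit of 19 bases with 148, and that nearest to Dynlrb2, a dynein light chain gene, a unit of 17 bases with 140. The peak upstream of Rasgrf1, an imprinted gene, had a unit of 40 bases with 9 exact copies. The last, between genes and nearest to 8030423J24Rik, had a unit of 61 bases with 12 exact copies, and of these 7 peaks it was the one with no KO peak.
Lyst intron, chr13:13846661-13846780: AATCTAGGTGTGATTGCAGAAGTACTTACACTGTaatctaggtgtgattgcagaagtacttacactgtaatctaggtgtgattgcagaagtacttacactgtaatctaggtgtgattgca
Rrp15 intron, chr1:188555918-188556037: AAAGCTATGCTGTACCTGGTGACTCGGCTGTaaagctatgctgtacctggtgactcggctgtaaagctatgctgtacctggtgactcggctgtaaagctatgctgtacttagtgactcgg
Near Prox1, chr1:192125421-192125540: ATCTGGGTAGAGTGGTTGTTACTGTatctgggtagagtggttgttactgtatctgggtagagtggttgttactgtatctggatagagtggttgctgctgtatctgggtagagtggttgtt
Near 9230019H11Rik, chr10:7231315-7231434: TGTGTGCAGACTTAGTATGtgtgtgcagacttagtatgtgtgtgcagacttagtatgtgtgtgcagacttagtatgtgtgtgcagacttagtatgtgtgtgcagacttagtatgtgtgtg
Near Dynlrb2, chr8:119083231-119083350: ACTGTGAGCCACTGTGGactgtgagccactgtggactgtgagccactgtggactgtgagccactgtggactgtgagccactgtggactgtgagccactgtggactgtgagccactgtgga
Upstream of Rasgrf1, chr9:89775935-89776054: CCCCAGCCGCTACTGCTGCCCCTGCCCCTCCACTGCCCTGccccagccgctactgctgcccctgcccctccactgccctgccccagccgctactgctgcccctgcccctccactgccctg
Near 8030423J24Rik, chr13:71157653-71157772: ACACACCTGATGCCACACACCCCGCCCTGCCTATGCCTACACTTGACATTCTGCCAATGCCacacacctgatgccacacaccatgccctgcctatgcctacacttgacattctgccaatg

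A second set of sequences is shown because KAP1 in Hepa 1.6 lay on it. These are coding stretches of zinc finger genes under both a wide WT H3K9me3 peak and a KAP1 peak, 150 bases each, read along the coding strand. Capitals mark 2 sites of 15 bases in each, which encode the linker between neighbouring C2H2 zinc fingers. The wide peak in the exon of Zfp777 held 4 such linkers in all, that in Zfp697 held 6 and that in Repin1 held 5.
Zfp777 exon, chr6:47974709-47974858: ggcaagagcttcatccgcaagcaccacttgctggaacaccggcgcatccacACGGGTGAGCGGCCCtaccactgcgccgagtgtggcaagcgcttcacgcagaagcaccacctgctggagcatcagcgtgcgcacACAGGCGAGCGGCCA (minus strand)
Zfp697 exon, chr3:98231699-98231848: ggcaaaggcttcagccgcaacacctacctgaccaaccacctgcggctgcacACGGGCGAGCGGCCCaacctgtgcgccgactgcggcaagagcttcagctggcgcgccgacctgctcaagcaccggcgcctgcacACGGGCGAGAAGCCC (plus strand)
Repin1 exon, chr6:48547008-48547157: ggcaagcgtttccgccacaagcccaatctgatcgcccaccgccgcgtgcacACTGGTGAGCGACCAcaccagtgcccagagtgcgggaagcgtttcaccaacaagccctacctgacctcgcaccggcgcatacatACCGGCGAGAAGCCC (plus strand)

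The following stretches are shown because several wide peaks shared them. In the largest group of peaks with alike sequence, 41 peaks joined by alignments of at least 500 bp at 80% identity, the run of 32 capitals was held by 10 of the 195 wide peaks and by 109 of the 13082 narrower ones. In the second group, 9 neighbouring peaks on chromosome 6 between Ezh2 and Pdia4, all 150 bases were identical in all 9 peaks and in 0 narrower ones. In the next group, 6 peaks on 4 chromosomes, the run of 56 capitals was held by 3 wide and 3 narrower peaks.
Group of 41, chr8:47746741-47746890: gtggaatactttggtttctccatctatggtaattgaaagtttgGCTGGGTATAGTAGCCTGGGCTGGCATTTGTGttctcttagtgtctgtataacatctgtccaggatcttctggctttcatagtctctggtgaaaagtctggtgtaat
Group of 9, chr6:47602783-47602932: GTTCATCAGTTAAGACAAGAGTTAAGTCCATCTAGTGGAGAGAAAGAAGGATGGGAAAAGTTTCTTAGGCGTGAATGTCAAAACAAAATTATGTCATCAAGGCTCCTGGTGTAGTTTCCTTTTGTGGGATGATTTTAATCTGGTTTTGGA
Group of 6, chr11:120618636-120618785: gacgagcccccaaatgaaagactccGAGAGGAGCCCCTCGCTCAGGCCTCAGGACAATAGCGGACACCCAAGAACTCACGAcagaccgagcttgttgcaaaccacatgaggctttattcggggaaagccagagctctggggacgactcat

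The wide peaks ranged from 2000 to 9209 bp, with a median of 2542 bp, and together covered 594 kb, 6.53% of the bases under autosomal WT peaks in 1.37% of the peaks. The 5 narrowest spanned 2000 to 2014 bp and the 5 distal peaks just below the limit 1987 to 1993 bp. Their MACS scores, minus 10 times the log10 of the peak p-value, ran from 50.7 to 3100 with a median of 570, against 78.4 for narrower distal peaks. A score of 3100 is about the highest the lists reach. Width and score chose or track the choice of these peaks and are given as a description. The scores fell into a main body and a low tail. Scores below 160 were found for 31 wide peaks, with widths of 2024 to 7559 bp, and the next score was 196. The widest peak of all, 9209 bp on chromosome 8 and nearest to Gm5373, scored 284. The second, 8840 bp over an exon of Gm13251 on chromosome 4, scored 1261. A limit of 160 was set after the scores were seen.

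**Figure D1:**
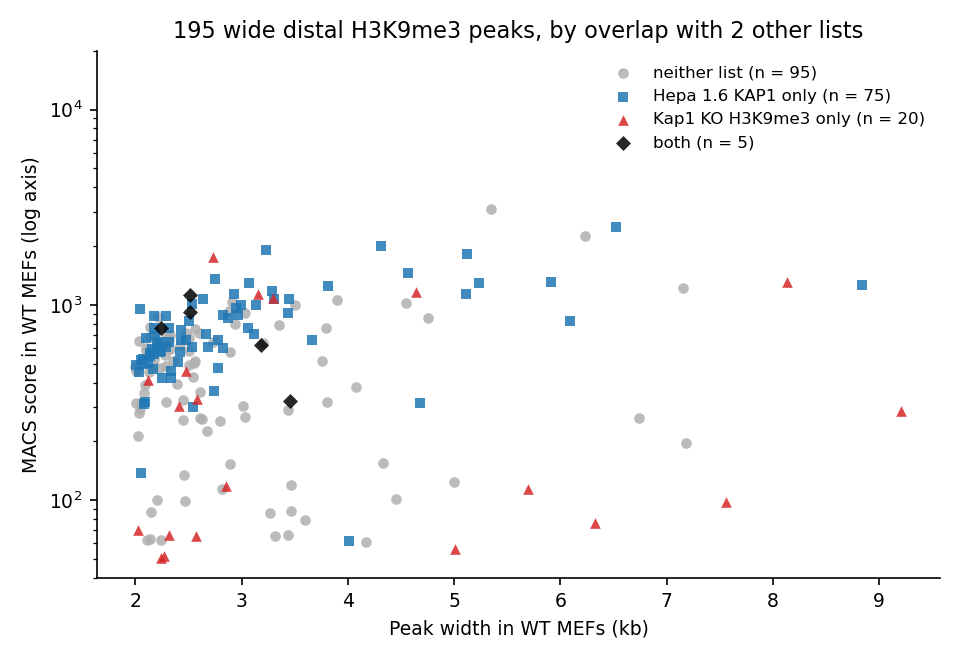
Width in kb (x axis) and MACS score on a log axis (y axis) of the 195 wide distal H3K9me3 peaks in WT MEFs, marked by overlap with the Kap1 KO H3K9me3 list and the Hepa 1.6 KAP1 list. Of these peaks, 95 met neither list, 75 met KAP1 alone, 20 the KO list alone and 5 both, and 10 of the 31 peaks with scores below 160 met the KO list.

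The wide peaks were unevenly placed. Chromosome 8 held 45 of them, 34.2 per 100 Mb, chromosome 17 held 28 and chromosome 4 held 25, so that 98 of 195 lay on 3 chromosomes, while chromosomes 14 and 16 held 0. Chromosome 8 also carried the most narrower peaks, with 14.4% of them against 23.1% of the wide ones. The share on chromosome 4 was 12.8% of wide and 5.32% of narrower peaks, and on chromosome 17 it was 14.4% and 7.76%. On chromosome 2 the order turned, with 0.513% of wide and 4.62% of narrower peaks. Another WT H3K9me3 peak lay within 10 kb of 79.5% of wide and 52.7% of narrower peaks. Of the 195, 123 lay more than 100 kb from every other wide peak, and 52 fell into 10 local runs of 3 or more.

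**Figure D2:**
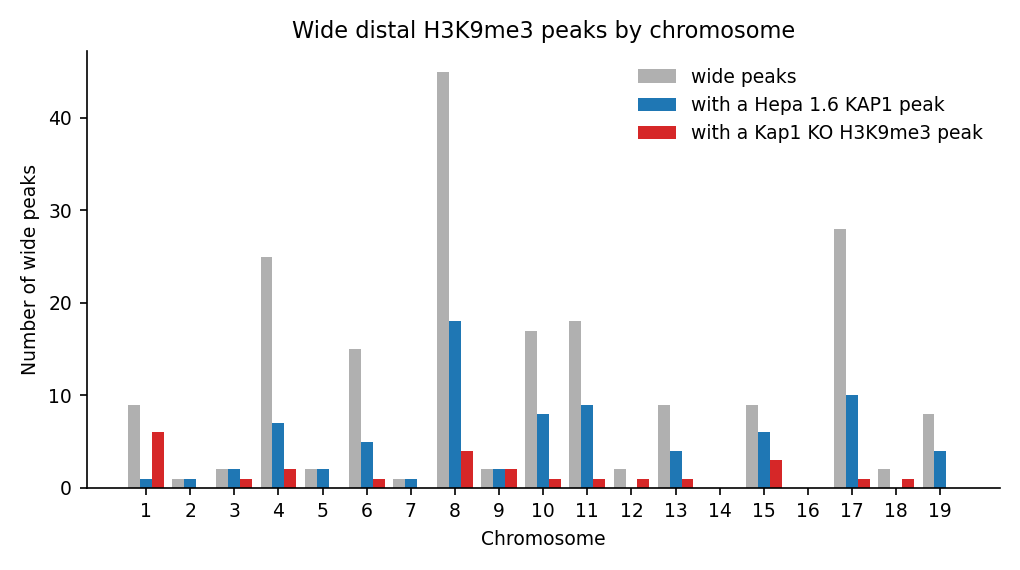
Number of wide distal H3K9me3 peaks (y axis) on each autosome (x axis), with the number of those that overlapped a Hepa 1.6 KAP1 peak or a Kap1 KO H3K9me3 peak. Chromosome 8 held 45 wide peaks with 18 at KAP1 and 4 in the KO list, and chromosome 1 held 9 with 1 at KAP1 and 6 in the KO list.

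Chromosome 4 held 24 wide peaks within 2.09 Mb, in a cluster of KZFP genes and related units (KZFP/rGUs, stretches of zinc finger sequence with or without an annotated gene). Gm13251 held 3 of these peaks, Gm13247 and Gm13139 held 2 each, and Gm13145, Gm13157, Zfp534 and Zfp600 held 1 each. The peak in Zfp534 also lay in 2610305D13Rik. Within the cluster, 12 peaks formed the run with the most peaks, over 260 kb around Gm13139, and 6 lay within 86.7 kb at Gm13247 and Gm13251. There were 5 peaks of 2542 to 7149 bp around Prl2c3 and Prl2c2, prolactin family genes on chromosome 13, and 3 of 2053 to 2458 bp at H2-Q6 and H2-Q7, class I histocompatibility genes on chromosome 17. A run of 3 peaks of 2565 to 6325 bp lay at C130026I21Rik on chromosome 1. The run between Ezh2 and Pdia4 on chromosome 6 had 9 peaks within 114 kb.

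Genes held 70 of the 195 wide peaks (35.9%, exact Clopper-Pearson 95% interval 29.2 to 43.1), against 28.6% of narrower peaks, a difference of 7.30 percentage points (Newcombe 95% interval 0.853 to 14.3). Against the closest width class, with 30.1%, the difference was 5.80 points and its interval, -1.12 to 13.2, includes 0. For protein-coding genes alone the shares were 27.2% and 25.8%, and the interval of the difference ran from -4.46 to 8.03 points. Intervals count peaks within 1 library, and neighbouring or alike peaks are not independent. The middle base lay in an exon in 20 wide peaks (10.3%, against 2.48%), in an intron in 44 and between genes in 131. Gm20388, annotated as a 4434882 bp body on chromosome 8 that spans many other genes, was the only protein-coding gene with 4 or more wide peaks, and held 5.

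Of the gene families listed, zinc finger genes (symbols Zfp with a number) held several wide peaks. They held 8 of the 195 wide peaks (4.10%, against 0.902% of narrower peaks), in Zfp180, Zfp282, Zfp534, Zfp600, Zfp697, Zfp777, Zfp781 and Zfp873, and 19 wide peaks lay within 50 kb of a start of such a gene (9.74%, against 3.18%). A KZFP/rGU was overlapped by 15 wide peaks (7.69%, 4.37 to 12.4) and by 0.848% of narrower ones, a difference of 6.84 points (3.86 to 11.5). Against the closest width class, with 2.38%, it was 5.31 points (2.16 to 9.97). The KZFP/rGU positions used are a part of the study's full list, so overlaps with the others are not counted. Olfactory receptor, vomeronasal receptor, clustered protocadherin, cytochrome P450, defensin, keratin-associated protein, imprinted, germline and KAP1 pathway genes held 0, as did the lists of cell type markers. Each of these lists also held few narrower peaks, at most 0.176% (germline genes), so 0 of 195 is near that share. A list of 188 long protein-coding genes held 5 (2.56%, against 3.23%), all in Gm20388. Within 50 kb of a start there were 4 wide peaks for olfactory receptor genes (2.05%, against 1.63%), 2 for vomeronasal receptor genes (1.03%, against 0.848%) and 2 for neuronal markers (1.03%, against 0.107%). There was 1 for cytochrome P450 genes (0.513%, against 0.726%) and 1 for imprinted genes (0.513%, against 0.115%). The last of these was the peak upstream of Rasgrf1.

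Most wide peaks had no counterpart in the Kap1 KO list. A KO H3K9me3 peak overlapped 25 of 195 (12.8%, 8.47 to 18.3), and the same was true of 3.13% of all autosomal WT peaks, of 2.69% of narrower distal peaks and of 5.35% of those of 1000 bp up to 2000 bp. The difference from all narrower peaks was 10.1 points (6.14 to 15.6) and from the closest width class 7.48 points (3.25 to 13.0). A wide region can meet another peak more easily than a narrow one. Over the middle base alone the share was 9.23% for wide and 2.38% for narrower peaks. Scores differed as well. The wide peaks were therefore cut into 4 score classes of equal number, with narrower peaks of the same scores beside them. The weighted difference over these classes was -0.42 points, with only 18 and 6 narrower peaks in the upper 2 classes. In the lowest class, where narrower peaks numbered 12670, 24.5% of wide and 2.57% of narrower peaks met a KO peak.

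**Figure D3:**
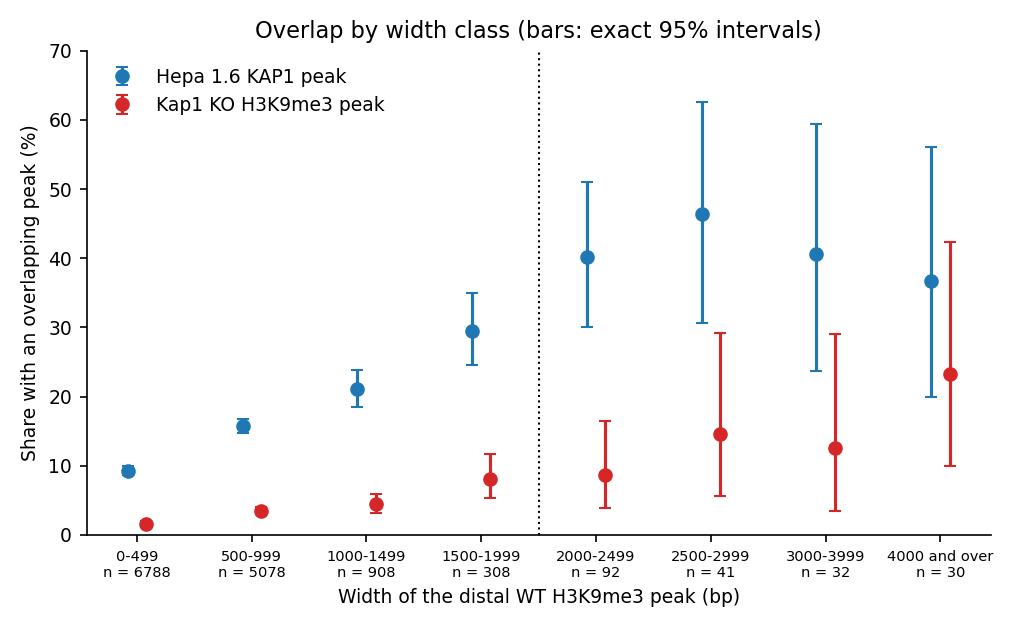
Share in percent (y axis) of distal WT H3K9me3 peaks in classes of width (x axis, bp, with n) that overlapped a Hepa 1.6 KAP1 peak or a Kap1 KO H3K9me3 peak, with exact 95% intervals as bars and a dotted line at 2000 bp. The KAP1 share ran from 9.30% under 500 bp to 46.3% at 2500 bp up to 3000 bp and 36.7% at 4000 bp and over, and the KO share from 1.65% under 500 bp to 23.3% at 4000 bp and over.

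Where a KO peak was present it covered from 14.7% to 100% of the wide peak, with a median of 65.3%, and at least 50% of the bases in 15 of 25. Over all 195, KO peaks covered 9.97% of the bases, against 2.53% for narrower peaks. The 35 KO peaks involved were 344 to 7186 bp wide and scored 54.7 to 2341. In 11 of the 25 the KO score was above the WT score. The peak in the Lyst intron scored 328 in WT and 550 in KO cells and was covered whole. The peak near Prox1 scored 304 and 563, with 90.7% covered, and that near 9230019H11Rik 1163 and 1236, with 89.2% covered. These 3 peaks scored higher in the KO list than in the WT list. The peak in the Rrp15 intron went from 1765 to 688 with 98.2% covered, and the 8132 bp peak near Gm10479 on chromosome 12 from 1306 to 294 with 80.5% covered, so both scored lower in the KO list while most of their length stayed under a peak. Scores depend on the depth of each library, and no replicate gives the spread of such a change.

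Peaks with internal repeats more often had a KO peak. In 20 of the 195 wide peaks (10.3%) at least 10% of the 31-base words occurred more than once within the peak, and in 6.41% of the peaks of 1000 bp up to 2000 bp. Of these 20, 10 had a KO peak (50%, 27.2 to 72.8), against 15 of the other 175 (8.57%, 4.88 to 13.7), a difference of 41.4 points (20.7 to 61.8). At 50% of the words or more, 6 of 8 had a KO peak, against 19 of 187. Peaks that the rule did not choose showed the same order. Among distal peaks of 1000 bp up to 2000 bp, 26 of 78 with such repeats had a KO peak (33.3%) and 39 of 1138 without (3.43%), a difference of 29.9 points (20.4 to 41.0). Below 1000 bp the shares were 16.6% of 731 and 1.49% of 11135. The limits of 10% and 50% were chosen with the KO overlaps of single peaks in view. The 8 peaks with the most repeats had WT scores of 304 to 1765, and repeat units of 17 to 260 bases. They include the Lyst, Rrp15, Prox1, 9230019H11Rik and Dynlrb2 peaks printed above, whose KO peaks covered 18.9% to 100%. The 25 wide peaks with a KO peak also differed from the other 170 in copies elsewhere in mm9. At the median, 22.6% of their 31-base words occurred at 1 place in mm9, against 69.2%. Internal repeats were not separated from this difference. How the alignment placed reads that match several copies is not given in the sources used here, and its part in these overlaps was not tested.

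**Figure D4:**
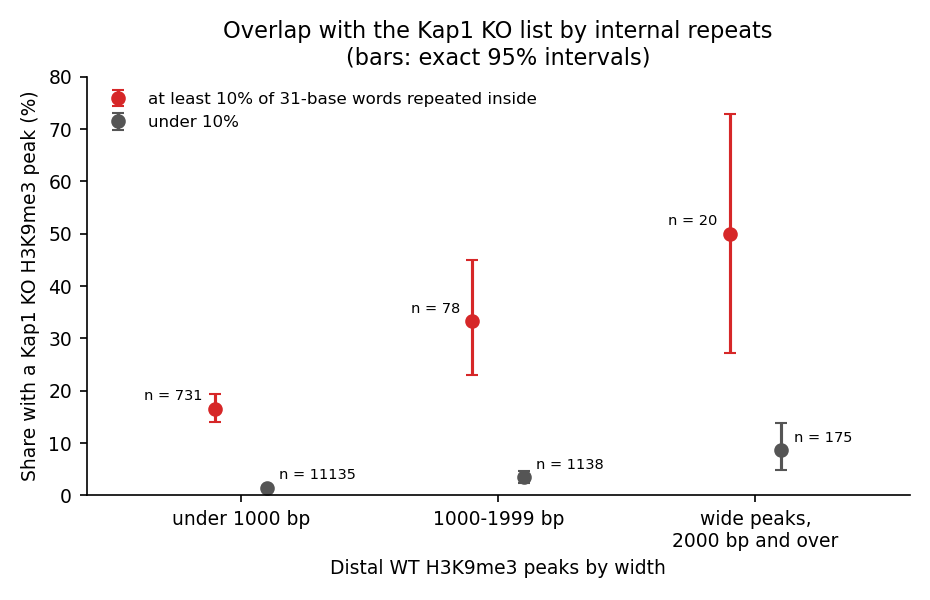
Share in percent (y axis) of distal WT H3K9me3 peaks of 3 width classes (x axis) that overlapped a Kap1 KO H3K9me3 peak, for peaks with at least 10% and with under 10% of their 31-base words repeated inside, with exact 95% intervals as bars. In each class the peaks with repeats lie higher, with 50% against 8.57% among the wide peaks.

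Of the 15 wide peaks with a KO peak and few internal repeats, 9 had a low WT score. Of the 31 wide peaks with WT scores below 160, 10 had a KO peak (32.3%), against 15 of the 164 above (9.15%), a difference of 23.1 points (8.40 to 41.1). On chromosome 1, 6 of 9 wide peaks had one. The run at C130026I21Rik made 3 of these, with WT scores of 65.6, 76.1 and 115 and KO scores of 266, 174 and 138. In that run each KO score was above its WT score. A 31-base word from these 3 peaks typically occurred at 3 to 4 places in mm9. The peak at the very start of the sequenced part of chromosome 11, nearest to Sfi1, scored 56.5 in WT and 126 in KO cells with 98.2% covered. That near the start of chromosome 6 scored 119 and 109 with 65.3% covered. On chromosome 18 a wide peak nearest to Vmn1r238 scored 1079 in WT and 2341 in KO cells, the highest KO score at any wide peak, and was covered whole. The Sfi1 and Vmn1r238 peaks are among the 20 with internal repeats, with 23.1% and 40.9% of their words repeated inside. The widest peak of all, near Gm5373, scored 284 and 167 with 70.1% covered. The peak nearest to Tspyl5 on chromosome 15 scored 323 and 87.6 with 57.3% covered.

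KAP1 in Hepa 1.6 lay at many wide peaks. A KAP1 peak overlapped 80 of 195 (41.0%, 34.0 to 48.3), where the share was 14.5% for all autosomal WT peaks and 13.1% for narrower distal ones, a difference from the latter of 27.9 points (21.2 to 35.0). Against peaks of 1000 bp up to 2000 bp, with 23.2%, the difference was 17.8 points (10.7 to 25.2). At the middle base the shares were 25.6% and 9.87%. Over the 4 classes of WT score the weighted difference was 13.5 points. In the lowest class the share was 8.16% of wide against 12.5% of narrower peaks, and in the highest 65.3% of 49 wide peaks against 2 of 6 narrower ones, so KAP1 was found mainly at wide peaks of high score. The KAP1 peaks that are also in the SETDB1 list lay at 32 wide peaks (16.4%), where the share of all autosomal WT peaks was 4.76%. Every entry of the SETDB1 list is an entry of the KAP1 list with the KAP1 score, so it marks shared places and gives no SETDB1 level.

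Within a wide peak the KAP1 peaks lay near the middle. Of 89 KAP1 peaks, with a median width of 843 bp, 52 had their own middle in the central one of 3 equal segments of the wide peak (58.4%) and 84 anywhere inside it. Only 8 wide peaks held 2 or more KAP1 peaks. All KAP1 peaks together covered 14.8% of the bases of the wide peaks. The best KAP1 score at a wide peak had a median of 352, against 198 at narrower peaks that had one.

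**Figure D5:**
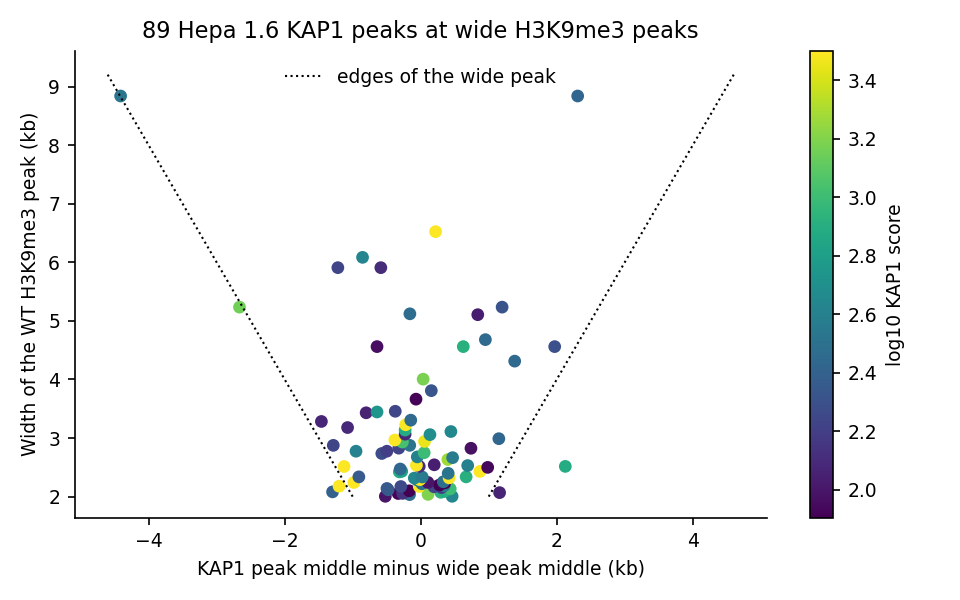
Distance in kb from the middle of each wide WT H3K9me3 peak to the middle of each overlapping Hepa 1.6 KAP1 peak (x axis) against the width of the wide peak in kb (y axis), with log10 of the KAP1 score as colour and dotted lines at the edges of the wide peak. Of the 89 KAP1 peaks, 84 have their middle between the edges and 52 in the central one of 3 equal segments.

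Wide peaks over exons mostly had a KAP1 peak, and 12 of the 20 encoded zinc finger linkers. Of the 20 wide peaks with their middle in an exon, 18 had a KAP1 peak (90%, 68.3 to 98.8), against 62 of the other 175 (35.4%, 28.4 to 43.0), a difference of 54.6 points (33.2 to 64.4), and 16 of the 20 were in the SETDB1 list. Among narrower peaks the exonic share was 30.2% of 324 and the other 12.7%. At least 3 zinc finger linkers, searched in all 6 reading frames, were encoded by 18 wide peaks (9.23%, against 0.619% of narrower ones). Of these 18, 13 had a KAP1 peak (72.2%, 46.5 to 90.3), against 67 of 177 (37.9%), a difference of 34.4 points (10.1 to 51.1). Outside the chromosome 4 cluster the counts were 7 of 10 and 67 of 161, and the interval of the difference, -2.91 to 49.0 points, includes 0. The median WT score was 883 for the exonic peaks and 769 for those with linkers, against 570 for all wide peaks. KAP1 was found mainly at high scores, and these differences among peaks of like score were not tested. A KO peak was found at 0 of the 18 with linkers, which allows a share of up to 18.5% (exact 95% interval). Among the others the count was 25 of 177, and the interval of the difference, -20.0 to 3.999 points, includes 0. In the chromosome 4 cluster KAP1 went with the linkers. KAP1 peaks lay at 6 of the 8 wide peaks that encoded linkers, which were also the 8 over a KZFP/rGU, and at 0 of the 16 others, which allows a share of up to 20.6%, a difference of 75 points (35.8 to 92.9). Those 16 carried wide H3K9me3 peaks in MEFs at places with no KAP1 peak in Hepa 1.6.

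A KAP1 score of at least 3100, the upper end of that list, was reached at 11 wide peaks, all of them in the SETDB1 list and 6 of them exonic. The exonic ones were in Zfp777, Zfp282, Zfp697, Repin1 (a zinc finger gene linked to replication initiation), Scrt2 (a zinc finger repressor of the Snail family) and Cdh15, the gene of M-cadherin. In WT MEFs these 6 peaks scored 1909, 876, 1013, 891, 560 and 758, and none overlapped a KO peak. Introns held 3, in Habp4 (WT score 579), Socs5 (743), a suppressor of cytokine signalling, and Arhgap10 (2516). The other 2 were the 61-base repeat near 8030423J24Rik (WT score 758), where KAP1 covered the whole peak, and the peak upstream of Rasgrf1. At Rasgrf1, whose imprinting depends on a repeat-bearing region upstream of the gene, the WT score was 1123, 2 KO peaks with a best score of 104 covered 30.0% of the bases, and it was the only one of the 11 with a KO peak. Zfp282, Zfp697 and the others of these 11 were named by their KAP1 score.

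Wide peaks with a KAP1 peak in Hepa 1.6 less often had a KO peak. The counts were 5 of 80 with KAP1 (6.25%, 2.06 to 14.0) and 20 of 115 without (17.4%, 11.0 to 25.6), a difference of -11.1 points (-19.8 to -1.59). Those with KAP1 had a median WT score of 686 and those without of 455. Below a WT score of 160, 10 of 31 wide peaks had a KO peak and 2 of 31 a KAP1 peak. Above it, 15 of 164 had a KO peak and 78 of 164 a KAP1 peak. The low scores thus enter this difference, and its size among peaks of like score was not tested. Of the 11 wide peaks that scored higher in the KO list than in the WT list 0 had a KAP1 peak, which allows a share of up to 28.5%, and 5 of the 14 that scored lower had one.

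Sequence similarity joined 88 of the 195 wide peaks (45.1%, 38.0 to 52.4) to at least 1 other. The largest group, 41 peaks on 9 chromosomes, had widths of 2014 to 9209 bp and WT scores of 50.7 to 1306. KAP1 lay at 16 of the 41, a KO peak at 3 and a KO H3K27ac peak at 2, and 17 of its 19 KAP1 peaks had their middle in the part that aligned with another wide peak. That part made up a median of 78.3% of the wide peaks concerned (11.3% to 100%), and a preference of KAP1 for it was not tested. Wide peaks without a similar one were in the SETDB1 list more often, with 24 of 107 (22.4%) against 8 of 88 (9.09%), and the difference, similar minus the rest, was -13.3 points (-23.2 to -2.92). For KAP1 the counts were 48 of 107 and 32 of 88, and the interval of that difference, -21.7 to 5.33 points, includes 0. The median WT score was 628 without and 465 with a similar wide peak. From the lowest to the highest class of WT score, the share in the SETDB1 list rose from 4.08% to 38.8%. The differences among peaks of like score were not tested. Pairs of direct repeats of 250 to 1500 bp, set 2 to 12 kb apart around the middle base, were also searched for. They were found for 42 wide peaks (21.5%, 16.0 to 27.98) and for 17.8% of the peaks of 1000 bp up to 2000 bp. Long terminal repeats and tandem arrays both give such pairs, and the search did not separate them. The Lyst, Rrp15, Prox1, 9230019H11Rik, Dynlrb2 and 8030423J24Rik peaks with internal repeats were among the 42. So were 3 of the 9 peaks between Ezh2 and Pdia4. Over all 195 wide peaks, a median of 60.4% of the 31-base words occurred at 1 place in mm9, against 77.4% in narrower peaks and 79.1% in the closest width class. In 26 of the 195 (13.3%) the typical word had 10 or more places, against 22.6% of all narrower peaks but 10.9% of the closest width class. The order therefore depends on the widths compared. The GC content was 44.9% at the median, against 46.8%.

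H3K27ac in Kap1 KO cells met 28 wide peaks (14.4%, 9.76 to 20.1), where the share of all autosomal WT peaks was 4.83%. In WT cells it met 11 (5.64%, with 1.4% of all autosomal peaks), each of which also had a KO H3K27ac peak. The other 17 had H3K27ac in KO cells alone (8.72%, with 3.79% of all autosomal peaks), against 3.75% of narrower peaks, a difference of 4.96 points (1.74 to 9.77). Against the closest width class, with 5.84%, it was 2.88 points and the interval, -0.64 to 7.82, includes 0. H3K27ac in WT alone was found at 0 of 195, which allows a share of up to 1.87%. The share of all autosomal WT peaks was 0.364%, so 0 of 195 is near that share. In 15 of the 28 the KO H3K27ac peaks covered at least 50% of the bases, and these 15 include 8 peaks of the chromosome 6 array described below. A KO H3K9me3 peak was also found at 2 of the 28, where the count over all wide peaks was 25 of 195 (12.8%). A difference between these shares was not tested. One was the Rrp15 intron, where H3K27ac scored 64.3 in WT over 33.5% of the bases and 380 in KO cells over 98.4%. The other was the 6325 bp peak at C130026I21Rik, with 11.0% covered in KO cells.

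The chromosome 6 array between Ezh2 and Pdia4 accounted for 8 of the 28. Its 9 wide peaks were 2133 to 4999 bp wide with low WT H3K9me3 scores of 61.9 to 155, and the 150 bases printed above were the same in all 9. A typical 31-base word from them occurred at 17 places in mm9, and none of the 9 had a KO H3K9me3 peak. H3K27ac peaks lay at 4 of the 9 in WT and at 8 in KO cells. In 7 of those 8 the KO peaks covered over 90% of the wide peak. Some neighbours in the array had the same best KO H3K27ac score (125 or 389), so 1 KO peak may lie over several of them. One of the 9, nearest to Pdia4, had a KAP1 peak, with a score of 1510. Without the 72 wide peaks that lay within 100 kb of another, this array among them, KO H3K27ac met 8 of 123 (6.50%), against 4.49% of narrower peaks. Outside the array, 13 wide peaks had H3K27ac in KO cells alone. KAP1 in Hepa 1.6 lay at 6 of these 13, near its share of all wide peaks (41.0%). With the array included, H3K27ac in KO cells alone was found at 7.50% of wide peaks with KAP1 and 9.57% of those without. Arhgap10 was one of the 6, with a KO score of 2877 over 8.69% of the bases, beside a KAP1 score of 3100. At the exon of Ccdc102a on chromosome 8 H3K27ac scored 106 in WT and 3100 in KO cells over 45.9% of the bases. At the peak near Irf2bp2, a repressor gene on chromosome 8, no WT H3K27ac peak was listed and the KO peak scored 1060 over 69.1% of the bases. Both were singled out after their values were seen.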

How the data were processed

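Peak lists of 6 ChIP-seq libraries were used, with 1 library per group: H3K9me3 and H3K27ac in WT and Kap1 KO MEFs, and KAP1 and SETDB1 in Hepa 1.6. Each deposited score is that of MACS 1.4, run by the authors with the total input as control on reads aligned to the mm9 assembly by Bowtie2 2.2.1 (sensitive-local setting). How reads that map to several places were treated in the ChIP-seq data is not given in the sources used here. The methods state a score cutoff of 80, but the MEF lists reach down to 50. Scores rank peaks within a list. The RNA-seq, liver, embryonic stem cell and input libraries were not analysed here.

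Peaks overlapped when they shared at least 1 bp. Shares carry exact Clopper-Pearson intervals and differences Newcombe intervals, both at 95%. With 1 library per group no p-value was computed. Intervals cover counting error only and say nothing of variation between libraries. Genes came from GENCODE vM1, and 560 KZFP/rGU positions from a supplementary table of the study, a part of its full list, served as annotation, so the clusters rebuilt from them can differ from the study's. Clusters were at least 8 of these within 500 kb of the next. Words of 31 bases were counted over mm9 on both strands, and peaks were aligned to each other with blastn 2.17.0. Linkers were found by translating all 6 frames. Transposable element families were not annotated. Scripts ran in python 3.11.15 with numpy 2.4.6, pandas 2.3.3 and scipy 1.17.1. Overlaps were checked against bedtools 2.31.1, and the scripts were tested on simulated data.

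Genes named by rule were those holding or nearest within 200 kb to the 20 widest peaks, to the 10 widest peaks covered over at least 50% by KO peaks and to the 10 peaks with the highest KAP1 score, and genes holding 4 or more wide peaks. Other genes were singled out after their values were seen. The wide peaks, gene lists and rules were chosen with earlier results of these data known. The limits for internal repeats and for low scores were set after seeing the data.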

Additional observations from a re-analysis of the deposited data

How the results depend on the processing

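Of 105 alternative values, 76 stayed within the interval of the main value or near its count, 28 moved further and 1 reversed. The reversal was the difference from narrower peaks in the share with a KO H3K9me3 peak, -0.425 points over 4 score classes, where the KAP1 difference was 13.5 points. With equal numbers of peaks from both genotypes the KO difference was 5.94 points. Joining WT peaks under 1 kb apart gave 669 wide peaks, with 8.22% at a KO peak (difference 5.61 points), 8.37% at KO H3K27ac, 27.1% in genes and 57.2% with a similar sequence. A minimum of 1500 bp gave 503 peaks, with 34.0% at KAP1 and 9.74% at KO H3K27ac. A minimum of 3000 bp gave 62 peaks, with 22.6% at KO H3K27ac and 14.5% over a KZFP/rGU. Requiring scores of 80 left 8.33% at a KO peak. At the middle base KAP1 met 25.6% (difference 15.8 points) and KO H3K27ac 8.21%. Counting the upper 50% of the other list by score gave 32.8% and 3.08%, and an overlap of 50% of the shorter interval gave 9.74% for KO H3K27ac. Against narrower peaks of 1000 bp up to 2000 bp the KAP1 difference was 17.8 points. Similar sequence fell to 28.7% at 90% identity and to 32.8% at 1000 bp. Protein-coding genes held 27.2%. Among peaks over 100 kb from every other wide peak, an alternative chosen after seeing the data, KAP1 met 49.6% (difference 36.5 points) and KO H3K27ac 6.50%. The causes were not tested. A score minimum of 160, also chosen after seeing the data, kept every value within its interval.

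No paired analysis was possible because each group compared had 1 library. Without replicates the spread between libraries is unknown, and the lists do not show the depth behind a missing peak. KAP1 and SETDB1 were mapped in another cell line and mouse strain than H3K9me3.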
